A study of Mus musculus with 6 samples.

Results

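Agilent arrays of hippocampal RNA from db/db and db/m mice carried 90752 probes of 60 bases, and 340 of them (0.375%) were examined here. These 340 probes hold, as written in the files, at least 2 copies of the pentamer ATTTA, with overlapping copies counted, and no copy of the canonical polyadenylation hexamer AATAAA. The rule reads only the probe sequences. The probes with at least 2 copies of the reverse complement TAAAT and fewer than 2 of ATTTA served as a contrast group of 1055 probes, weighted so that their GC counts followed those of the 340. The 6 samples were 3 db/db and 3 db/m male mice aged 18 weeks, 1 mouse per array, with the hippocampus taken after behavioural tests. db/db mice carry the db mutation of the leptin receptor gene on both chromosomes and are obese and diabetic, and db/m mice, which carry the mutation on 1 chromosome of the pair, are the usual lean control. Because db is present in every cell of the animal from conception, its effects in the hippocampus cannot be told apart from those of obesity or diabetes. The series set out to compare long non-coding RNAs of the hippocampus between these animals. The files name each probe only by a number and pair no probe with a gene, so no cell type or tissue marker could be looked up.

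AUUUA, written ATTTA in DNA letters, is the core of the AU-rich element, a signal found mainly in the 3′ untranslated regions of short-lived messenger RNAs such as those of cytokines, immediate early genes and growth regulators. Proteins that bind such elements either recruit the deadenylation and decay machinery, as tristetraprolin (Zfp36), its relatives and AUF1 (Hnrnpd) do, or stabilise the RNA, as the ELAV proteins do. In neurons the ELAV family is abundant, and activity-induced transcripts are known targets. A single pentamer is frequent by chance in any AT-rich sequence, and elements that act on decay usually carry repeated or overlapping pentamers, often within the longer motif TTATTTATT, called the nonamer below. Whether a given probe lies in a transcript's 3′ end, in a non-coding RNA or on the strand opposite to a transcript is not known from the files.

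The most copies in a probe were 3, and 11 of the tested probes had them. The 8 shown, taken from this tie by their number of nonamers and then by probe name, give the forms of the repeat, from overlapping runs to copies spread along the probe. They are given 5′ to 3′ with every ATTTA in capitals.
MOUSELNCRNA_50383: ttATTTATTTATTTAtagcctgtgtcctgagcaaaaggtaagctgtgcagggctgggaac
MOUSELNCRNA_77976: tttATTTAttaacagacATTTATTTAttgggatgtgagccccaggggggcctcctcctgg
MOUSELNCRNA_13605: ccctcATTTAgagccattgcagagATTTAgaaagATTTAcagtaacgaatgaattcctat
MOUSELNCRNA_17691: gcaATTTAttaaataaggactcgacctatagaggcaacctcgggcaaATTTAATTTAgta
MOUSELNCRNA_32112: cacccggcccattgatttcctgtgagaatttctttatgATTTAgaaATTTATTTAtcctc
MOUSELNCRNA_44994: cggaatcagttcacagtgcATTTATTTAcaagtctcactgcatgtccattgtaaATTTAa
MOUSELNCRNA_48218: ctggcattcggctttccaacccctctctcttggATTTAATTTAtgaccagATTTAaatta
MOUSELNCRNA_52479: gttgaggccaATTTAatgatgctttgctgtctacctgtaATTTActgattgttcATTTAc

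The 2 probes with the smallest p-values among those lower in db/db, and then the 2 among those higher, are shown in the same way. They are described singly below, and none of them passed after adjustment.
MOUSELNCRNA_55452: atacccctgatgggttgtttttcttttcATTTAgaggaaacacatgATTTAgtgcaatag
MOUSELNCRNA_204: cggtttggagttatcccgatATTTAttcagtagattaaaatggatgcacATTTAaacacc
MOUSELNCRNA_59527: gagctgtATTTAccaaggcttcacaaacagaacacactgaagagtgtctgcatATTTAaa
MOUSELNCRNA_65944: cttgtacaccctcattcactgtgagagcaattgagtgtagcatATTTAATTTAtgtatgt

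From the contrast group, the 2 probes with the most copies of TAAAT, which is in capitals here, are shown for comparison. In both the copies overlap in a run that also contains the polyadenylation hexamer.
MOUSELNCRNA_40003: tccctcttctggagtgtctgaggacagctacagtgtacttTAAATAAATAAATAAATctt
MOUSELNCRNA_65980: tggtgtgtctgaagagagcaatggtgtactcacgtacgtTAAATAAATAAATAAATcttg

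Of the 340 probes, 328 held 2 copies and 12 held 3, and 0 held more. Copies overlapped in 75 probes, as in ATTTATTTA, and were separate in the other 265. The nonamer TTATTTATT was found in 30 of the 340 (8.82%), against 0.136% of all probes, and 3 of these held it in 2 copies. Since the nonamer contains the pentamer, its enrichment follows in part from the choice. The pentamers lay along the whole probe, with 197 copies starting in bases 1 to 20, 268 in bases 21 to 40 and 227 in bases 41 to 56.

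The probes were AT-rich by design of the rule, with 17 to 28 G or C bases and a median of 21, against a median of 25 over all probes. At 201 of the 340 the GC count was exactly 21, a count shared by 23536 probes of the array. The excess lay in T, with means of 17.0 A and 20.8 T per probe against 17.9 A and 17.5 T over all probes. In the contrast group the order was turned, with means of 20.2 A and 17.6 T.

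As written, the array held the pentamer less often than its reverse complement. ATTTA was present in 8.41% of all probes and TAAAT in 12.8%, and at least 2 copies were present in 0.409% and 1.17%. Counted over all probes there were 8018 copies of ATTTA and 12718 of TAAAT, a ratio of 1.59, which ranked 3 among the 512 pairs of reverse-complement pentamers. The pairs with larger ratios were AATAA against TTATT, at 2.20, and ATAAA against TTTAT, at 2.06, both of which are parts of the polyadenylation hexamer or of its reverse complement. The hexamer bears directly on the contrast group. It was present in 755 of the 1055 contrast probes (71.6%), against 14.7% of all probes, while the rule removed the 31 probes that held it from the 371 with repeated ATTTA. The main comparisons of detection and of the genotype difference with the contrast group are therefore given also against its 300 probes without the hexamer. That comparison was chosen after the values were seen.

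The probes are mostly distinct sequences. Among the 340, 16 shared at least 30 consecutive bases with another of them in 8 pairs, and 7 shared that much with a probe written on the opposite strand, which for 6 of them lay in the contrast group. A search of the probes in 32851 RefSeq promoter windows, from 250 bases before to 50 bases after a gene's start (GRCm38.p6), found 1 of the 340 whole. MOUSELNCRNA_26533 matched the strand opposite to Pdzk1, which encodes a PDZ-domain scaffold protein, at chr3:96830008-96830067, across the annotated start of the gene. This probe was well above background on 1 of the 6 arrays (db/m) and was not tested. Of all probes, 249 matched a window on the written strand and 228 on the opposite strand, and 10 contrast probes were among them. For the other 339 no position is given, since the files list none and no genome was used here.

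The signal is the intensity of a single dye, scaled on each array to its 75th percentile over all probes and given as log2 of that ratio, so that 0 is the level of the 75th percentile and lower values are dimmer. That percentile was an intensity of 361, 380 and 368 in db/db replicates 1 to 3 and 330, 355 and 367 in db/m replicates 1 to 3, and 66527 to 70464 probes per array were well above background. The first slide held db/m replicate 1 and the 3 arrays of db/db, and the other slide held db/m replicates 2 and 3. Slide and genotype therefore overlap, and values with slide in the fit stand beside the results they touch. Within the first slide, the comparison rests on 3 db/db arrays and 1 db/m array. With slide as a fixed block (slide as a block below), the difference is likewise that of db/db from db/m replicate 1 alone. The other slide holds no db/db array. The number of arrays, 3 per group, limits the precision of every comparison.

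The repeated-pentamer probes were detected about as often as the probes of the array as a whole, and slightly more often than all probes weighted to the same GC counts. The share well above background was 77.4%, 77.9% and 75.9% in db/db replicates 1 to 3 and 73.8%, 73.2% and 76.5% in db/m replicates 1 to 3. Over all probes the shares on the same arrays were 77.6%, 77.3%, 75.9%, 73.8%, 73.3% and 76.6%. The 2 sets thus differed by less than 1 percentage point on each array, while the arrays of either set spanned more. With all probes weighted to the GC counts of the 340, their mean share over the arrays was 73.7%, against 75.8% for the 340. A probe's brightness also depends on its own sequence, so the shares describe probes and not RNA abundance. In bulk tissue, fewer cells of a type and less RNA per cell cannot be told apart. On all 6 arrays 238 of the 340 probes exceeded background clearly, on none of them 61, and on some 41. None did so throughout one group and nowhere in the other, a pattern that 311 of all probes (0.343%) showed for db/db and 14 for db/m.

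The contrast probes were detected more often. Weighted to the same GC counts, their shares were 84.7%, 84.9% and 83.4% in db/db and 81.1%, 81.9% and 83.8% in db/m. The repeated-ATTTA probes were below them on 6 of 6 arrays, by a mean of 7.52 percentage points (SD 0.606 over the 6 arrays). Without the hexamer the contrast shares were 80.6%, 80.9% and 78.9% in db/db and 77.1%, 77.3% and 79.0% in db/m, and the mean gap was 3.16 percentage points (SD 0.524). It remained on 6 of 6 arrays, but it turned with GC count. At GC count 21 the unweighted mean shares were 74.6% for the repeated-ATTTA probes and 83.1% for the contrast probes without the hexamer. At GC counts over 21 they were 77.3% and 72.6%. The arrays share the same probes, so these SDs give the spread between arrays and not between sets of probes. The part of the hexamer, of the T-rich composition or of the strand in the gap was not tested.

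Detection was higher where more copies were present, on either strand. Among probes without the hexamer, a mean of 72.3% over the arrays was well above background with 0 copies of ATTTA and 74.1% with 1. Both were weighted to the GC counts of the 340. The means were 75.3% with 2 copies and 88.9% with 3, without weights. For TAAAT, all classes were weighted to these GC counts and held fewer than 2 copies of ATTTA and no hexamer. Their means were 72.2%, 74.9% and 78.5% with 0, 1 and 2 copies and 100% with 3 or more. The highest classes hold only 12 and 8 probes, so the order rests on the lower copy numbers, where it is small. Within the 340, probes with overlapping copies were detected more often than those with separate copies (means of 82.0% and 74.0%). The 30 with the nonamer stood at a mean of 88.3%, against 74.6% for the 310 without it. These classes were compared after the data were seen and are descriptions of the probes.

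Between db/db and db/m the repeated-ATTTA probes as a set showed almost no displacement. A probe entered the test if each of the 3 arrays of db/db, or each of the 3 of db/m, had it well above background. This left 252 of the 340, and 88 were not tested. The median log2 difference, db/db minus db/m, was -0.01, against 0.00 over all 66939 probes tested. The middle of the distribution ran from -0.18 to 0.15 (lower and upper quartile), against -0.16 to 0.14 over all probes. The differences were negative for 129 probes and positive for 123, and ranged from -1.55 to 1.06. Relative to each probe's mean over the arrays, the median was -0.02, -0.01 and -0.01 in the db/db replicates and 0.03, -0.02 and 0.00 in the db/m replicates, so the groups overlapped.

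No repeated-ATTTA probe passed the test. With limma and Benjamini-Hochberg adjustment over the 66939 probes, the smallest adjusted p among the 252 was 0.209, while 0.00149% of all probes tested, 1 probe, passed at 0.05. At an unadjusted p under 0.05, 32 of the 252 (12.7%) were lower in db/db and 13 (5.16%) were higher. The background over all probes was 11.4% lower and 6.53% higher, and in either direction 17.9% of both the 252 and all probes passed. The groups did not overlap for 38 probes (15.1%) that were lower in db/db and for 23 (9.13%) that were higher, against 15% and 9.4% of all probes. The counts were thus near their background in each direction. How they divide depended on the scaling, with 22 higher and 30 lower after quantile normalization and 22 higher and 21 lower after normexp background correction with quantile normalization. For these settings the background was 7.93% higher and 10.1% lower, and 9.13% higher and 10.4% lower.

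Slide and single arrays moved these counts. With slide as a fixed block, 16 probes were lower and 4 higher at an unadjusted p under 0.05 (background 6.76% and 3.9%), and within the first slide 8 were lower and 4 higher (4.78% and 3.44%). Without db/m replicate 1, the control array that shares the slide of the db/db arrays, 39 were lower and 26 higher (15.2% and 9.43%), and 11 lower ones passed the adjusted threshold. Those 11 are 4.37% of the 252, against a background of 6.34% lower, 0.705% higher and 7.05% in either direction. Without db/m replicate 3, 11 were lower and 8 higher (5.79% and 4.17%). Leaving out db/db replicate 1, db/db replicate 2 or db/m replicate 2 gave 16, 14 and 14 lower probes (7.19%, 6.63% and 6.97%), and leaving out db/db replicate 3 gave 25 higher ones (8.74%). In the fits without db/m replicate 1 the db/db arrays and the remaining control arrays were on different slides, so slide and genotype cannot be told apart there.

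Against the contrast group, the difference between genotypes was small and turned with the hexamer. For the contrast probes, weighted to the same GC counts, the median was -0.06, and 15.8% were lower and 3.70% higher at an unadjusted p under 0.05. The median of the repeated-ATTTA probes was 0.05 above it. The contrast probes with the hexamer had a median of -0.08 and those without it 0.01, and against the latter the repeated-ATTTA probes were 0.02 lower (-0.02). Of the contrast probes without the hexamer, 13.0% were lower and 5.02% higher at an unadjusted p under 0.05. The spread of single probes between mice was alike in these sets, with a median SD within a group of 0.15 for the repeated-ATTTA probes, 0.14 for the contrast group and 0.15 over all probes. No test was made of the shifts between the medians. The 31 probes with repeated ATTTA that were left out for the hexamer, weighted in the same way, had a median of -0.15.

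Among single probes, MOUSELNCRNA_55452 had the smallest p. Its log2 level was -2.17, -2.21 and -1.98 in db/db replicates 1 to 3 and -1.44, -1.33 and -1.05 in db/m replicates 1 to 3, well above background on all 6 arrays. All 3 db/db mice were below all 3 db/m mice, db/m replicate 1 included. The difference was -0.84 (SE 0.13, adjusted p = 0.209 by limma), which corresponds to 1.79-fold less signal in db/db. In the fit with slide as a block it was -0.68 (adjusted p = 0.401), and without db/m replicate 1 it was -0.93 (adjusted p = 0.0236).

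MOUSELNCRNA_204 differed less but varied little between mice. It stood at -1.80, -1.74 and -1.67 in db/db and at -1.45, -1.48 and -1.43 in db/m, with no overlap between the groups. The difference was -0.28 (SE 0.08, adjusted p = 0.212 by limma), and it was -0.29 with slide as a block. The probe has a single spot per array, so the spread between its spots is unknown.

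The 2 probes at the top in the other direction were dim, and both entered the test only through db/db, the group in which they were higher. Their differences are therefore taken in part against background. MOUSELNCRNA_59527 stood at -3.77, -4.12 and -4.56 in db/db and at -5.54, -5.28 and -4.80 in db/m, where 2 of the 3 arrays were well above background. The groups did not overlap, with a difference of 1.06 (SE 0.26, adjusted p = 0.209 by limma). With normexp background correction, whose offset draws low signals together, the difference was 0.15. MOUSELNCRNA_65944 stood at -5.55, -4.87 and -5.49 in db/db and at -6.18, -5.94 and -6.08 in db/m, where 1 of the 3 arrays was well above background. The groups did not overlap either, and its difference of 0.76 (SE 0.19, adjusted p = 0.209 by limma) was 0.02 with normexp. That offset by itself shrinks differences between signals this low, so both values do not show what the background correction does apart from it.

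None of the 11 tested probes with 3 copies passed the test. The 8 shown above had differences of -0.11 to 0.17 and span a wide range of brightness. MOUSELNCRNA_50383, whose 3 pentamers form 1 continuous run with 2 overlapping nonamers, stood at -1.06, -1.13 and -1.21 in db/db and at -1.14, -1.48 and -1.30 in db/m. The groups overlapped, with a difference of 0.17 (SE 0.11). MOUSELNCRNA_77976, the other with 2 nonamers, stood at 0.62, 0.57 and 0.82 in db/db and at 0.67, 0.73 and 0.64 in db/m. These ranges overlapped almost fully, with a difference of -0.01 (SE 0.10).

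MOUSELNCRNA_52479, with 3 separate copies, stood at 1.21, 1.16 and 1.19 in db/db and at 1.42, 0.96 and 0.90 in db/m. The db/db arrays lay inside the range of the db/m arrays, and db/m replicate 1 was the highest of all 6. The difference was 0.09 (SE 0.15). With slide as a block, which sets db/db against db/m replicate 1 alone, it was -0.23, so its sign turned. MOUSELNCRNA_44994 was the brightest of the 8, at 2.10, 2.10 and 1.90 in db/db and 2.06, 1.92 and 1.91 in db/m. For MOUSELNCRNA_44994, MOUSELNCRNA_13605, MOUSELNCRNA_17691, MOUSELNCRNA_32112 and MOUSELNCRNA_48218 the groups overlapped and the differences were 0.07, -0.09, 0.05, -0.03 and -0.11. The other 3 tested probes with 3 copies were dimmer, and the largest differences of the 11 were among them. MOUSELNCRNA_77204 stood at -4.82, -4.22 and -4.16 in db/db and at -5.84, -5.20 and -4.55 in db/m, where 1 of the 3 arrays was well above background, so that it too entered the test only through db/db. Its groups overlapped, with a difference of 0.79 (SE 0.34, adjusted p = 0.288 by limma). MOUSELNCRNA_66156 stood at -4.50, -4.75 and -4.65 in db/db and at -4.35, -4.60 and -4.03 in db/m, where the groups overlapped, with a difference of -0.31 (SE 0.16, adjusted p = 0.353 by limma). MOUSELNCRNA_53072 differed by 0.04. The adjusted p of the 11 ran from 0.288 to 0.962.

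The 2 contrast probes with 4 copies of TAAAT were brighter. MOUSELNCRNA_40003 stood at 7.78, 7.73 and 7.74 in db/db and at 7.85, 7.79 and 7.82 in db/m, with a difference of -0.07 (SE 0.08). MOUSELNCRNA_65980 stood at 2.76, 2.82 and 2.79 in db/db and at 2.80, 3.05 and 3.18 in db/m, with a difference of -0.22 (SE 0.12) that was 0.00 with slide as a block. The stretch before the repeat in both resembles the end of the B2 family of short interspersed elements as it is generally known, a resemblance that was not checked against a database.

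Differences of at least 2-fold at an unadjusted p under 0.05 were found for 3 lower probes (background 0.533%) and for 1 higher probe, MOUSELNCRNA_59527 (0.303%), which entered the test only through db/db. The 3 lower ones were all dim, and their db/m arrays lay far apart. With normexp background correction their differences were -0.33, -0.41 and -0.42 in the order shown. None was 2-fold with it, but its offset of 50 by itself shrinks differences between signals this low. These values therefore do not show what the background correction does apart from the offset.
MOUSELNCRNA_23406: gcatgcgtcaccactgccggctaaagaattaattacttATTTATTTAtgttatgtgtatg
MOUSELNCRNA_43000: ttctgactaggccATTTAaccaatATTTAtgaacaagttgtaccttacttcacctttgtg
MOUSELNCRNA_43707: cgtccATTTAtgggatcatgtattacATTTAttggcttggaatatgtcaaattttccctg

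MOUSELNCRNA_43707 stood at -5.62, -5.30 and -5.91 in db/db, where 2 of the 3 arrays were well above background, and at -5.53, -3.39 and -3.25 in db/m. It entered the test only through db/m, the group in which it was higher, so its difference is taken in part against background. Here db/m replicate 1 lay among the db/db arrays, and only the db/m arrays of the other slide were higher. Its difference was -1.55 (SE 0.59, adjusted p = 0.254 by limma). It was -0.08 with slide as a block, and without db/m replicate 1 it was -2.29 (adjusted p = 0.012), the largest of the 11 that passed in that fit.

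MOUSELNCRNA_43000 showed the same arrangement, at -5.69, -5.26 and -4.79 in db/db and -5.03, -2.59 and -3.84 in db/m. Its difference of -1.43 (SE 0.59, adjusted p = 0.273 by limma) was -0.22 with slide as a block. MOUSELNCRNA_23406, which holds the nonamer, stood at -5.63, -5.14 and -4.89 in db/db and -4.47, -4.77 and -3.20 in db/m. Here the groups did not overlap, and the difference of -1.07 (SE 0.42, adjusted p = 0.259 by limma) was -0.75 with slide as a block. These 3 probes were named for their size after the values were seen.

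The probes with the full nonamer leaned to lower signal in db/db, in a class chosen after the data were seen. Of the 30, 26 were tested, of which 6 (23.1%) were lower and 0 higher at an unadjusted p under 0.05, against 11.4% and 6.53% of all probes. None passed after adjustment. Their median difference was -0.11, with 18 of 26 negative, against 0.01 for the 226 tested probes without the nonamer. After quantile normalization the median was -0.09, with 6 (23.1%) lower and 0 higher, against 10.1% and 7.93% of all probes. After normexp with quantile normalization it was -0.06, with 3 (11.5%) lower and 1 (3.85%) higher, against 10.4% and 9.13%. The lower count was thus near its background in that setting. Relative to each probe's mean, the class median was -0.05, -0.06 and -0.04 in the db/db replicates and 0.05, 0.03 and 0.08 in the db/m replicates, so that each db/db array was below each db/m array. With slide as a block the median was -0.05 with 2 lower, and within the first slide 0 were lower and 0 higher. Of all probes, 6.76% were lower with slide as a block. The count of lower nonamer probes was 1 (3.85%) when db/m replicate 3 was left out, against 5.79% of all probes. It was 2 (7.69%) when db/db replicate 1, db/db replicate 2 or db/m replicate 2 was, against 7.19%, 6.63% and 6.97%. It was 4 after removal of db/db replicate 3, with 2 higher, where 18.7% of all probes passed in either direction. It was 6 (23.1%) after removal of db/m replicate 1, against 15.2% of all probes. There 3 of the 26 passed after adjustment, all of them lower in db/db. Of all probes, 6.34% passed as lower there and 7.05% in either direction. Over the 99 tested probes of the array that hold the nonamer, whatever their number of pentamers, the median was -0.02, and 12 (12.1%) were lower against 4 (4.04%) higher, against 11.4% and 6.53% of all probes. That median was 0.01 after quantile normalization and -0.07 with slide as a block. In the latter fit 9 (9.09%) were lower and 1 (1.01%) higher, against 6.76% and 3.9% of all probes. Of these 99, 4 (4.04%) were lower when db/db replicate 1, db/db replicate 2 or db/m replicate 3 was left out, against 7.19%, 6.63% and 5.79%. When db/m replicate 2 was, 6 (6.06%) were lower, against 6.97%.

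The 6 lower nonamer probes were of low to middling brightness and included MOUSELNCRNA_23406. MOUSELNCRNA_79775 stood at -4.12, -3.89 and -4.06 in db/db and at -3.84, -3.24 and -2.95 in db/m, a difference of -0.68 (SE 0.22). MOUSELNCRNA_37895 stood at -2.48, -2.52 and -2.66 in db/db and at -2.40, -1.75 and -1.56 in db/m, a difference of -0.65 (SE 0.21). In both the groups did not overlap, yet db/m replicate 1 lay nearest to db/db. MOUSELNCRNA_5597, with 2 nonamers, stood at -2.86, -2.75 and -2.77 in db/db and at -2.52, -2.56 and -2.60 in db/m, a difference of -0.23 (SE 0.08). In this probe the 3 db/m arrays lay close together whatever their slide. The other 2 were MOUSELNCRNA_57092 and MOUSELNCRNA_79273, with differences of -0.70 and -0.38.

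The arrangement of the copies was set beside this. The 61 tested probes with overlapping copies had a median difference of 0.01, and the 191 with separate copies -0.03. At an unadjusted p under 0.05, 14.8% of the overlapping class were lower and 3.28% higher, against 12.04% and 5.76% of the separate class and 11.4% and 6.53% of all probes. With slide as a block the medians were -0.04 and -0.02, with 36 of the 61 overlapping probes negative. In that fit 3.28% and 7.33% were lower, against 6.76% of all probes. The difference between the classes was not tested.

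A few of the probes carry sequence that recurs on the array. Among those tested, 4 shared at least 20 consecutive bases with 10 or more other probes on either strand, and they were grouped after the values were seen.
MOUSELNCRNA_48323: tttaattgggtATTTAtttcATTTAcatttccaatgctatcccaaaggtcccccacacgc
MOUSELNCRNA_57614: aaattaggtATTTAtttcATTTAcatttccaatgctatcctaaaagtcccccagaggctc
MOUSELNCRNA_48539: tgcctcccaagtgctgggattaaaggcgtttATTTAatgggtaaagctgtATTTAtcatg
MOUSELNCRNA_86523: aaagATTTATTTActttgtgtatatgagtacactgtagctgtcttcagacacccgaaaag

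MOUSELNCRNA_48323 and MOUSELNCRNA_57614 share at least 30 bases with each other, so they are not independent measurements. All 4 had lower signal in db/db, with differences of -0.36, -0.38, -0.70 and -0.52 in the order shown, and 3 of the 4 were at an unadjusted p under 0.05. MOUSELNCRNA_48539 stood at -0.15, -0.10 and 0.07 in db/db and at 0.13, 0.80 and 0.99 in db/m. MOUSELNCRNA_86523 stood at -3.33, -3.38 and -3.28 in db/db and at -3.28, -2.67 and -2.48 in db/m. In both, db/m replicate 1 was close to the db/db arrays and the db/m arrays of the other slide were higher.

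This arrangement held for the 4 as a class. The class median relative to each probe's mean was -0.17, -0.30 and -0.22 in db/db replicates 1 to 3, -0.16 in db/m replicate 1, and 0.37 and 0.48 in db/m replicates 2 and 3. With slide as a block the median difference was -0.09, and without db/m replicate 1 all but MOUSELNCRNA_48323 passed the adjusted threshold. For the other 248 tested probes the median was -0.01, and 29 (11.7%) were lower against 13 (5.24%) higher, near the background of 11.4% and 6.53%. In the contrast group, 142 tested probes shared sequence this widely, with a median difference of -0.12. At an unadjusted p under 0.05, 37 (26.1%) of them were lower and 1 was higher. Relative to each probe's mean, their median was -0.03, -0.08 and -0.08 in db/db and 0.02, 0.05 and 0.10 in db/m replicates 1 to 3. Here db/m replicate 1 thus lay above the db/db arrays. Only 14 of the 142 lacked the hexamer, with a median of -0.07 (-0.01 with slide as a block), 2 (14.3%) lower and 1 (7.14%) higher. Of the 142, 17 (11.97%) were lower after quantile normalization and 8 (5.63%) with slide as a block, against 10.1% and 6.76% of all probes. After normexp with quantile normalization 26 (18.3%) were, against 10.4%. Without db/db replicates 1 and 2, 15 (10.6%) and 11 (7.75%) were lower, against 7.19% and 6.63%. Without db/db replicate 3, 13 (9.15%) were lower, where 18.7% of all probes passed in either direction. Without db/m replicates 1, 2 and 3, 52 (36.6%), 11 (7.75%) and 8 (5.63%) were lower, against 15.2%, 6.97% and 5.79%. The share was thus near its background with slide as a block and without db/m replicate 2 or 3. The median of the 142 was -0.05 after quantile normalization and -0.09 with slide as a block.

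For 3 tested probes a contrast probe that shares at least 30 bases on the opposite strand was tested as well. This places repeated ATTTA and repeated TAAAT on the strands of a partly shared sequence. The probes of the pair with the largest differences match over part of their length only, and are shown with the respective pentamer in capitals. Runs of at least 20 bases of MOUSELNCRNA_47878 recurred in 4 probes on the opposite strand. Those of MOUSELNCRNA_2002 recurred in 9 others on the same strand and 2 on the opposite strand.
MOUSELNCRNA_47878: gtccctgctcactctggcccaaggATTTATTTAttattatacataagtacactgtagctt
MOUSELNCRNA_2002: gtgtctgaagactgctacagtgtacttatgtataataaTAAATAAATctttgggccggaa

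MOUSELNCRNA_47878 stood at 1.82, 1.75 and 1.75 in db/db and at 1.81, 2.17 and 2.14 in db/m, a difference of -0.27 (SE 0.12). MOUSELNCRNA_2002 stood at 4.33, 4.37 and 4.32 in db/db and at 4.45, 5.33 and 5.41 in db/m, a difference of -0.72 (SE 0.25). On either strand db/m replicate 1 lay with or next to the db/db arrays, and with slide as a block the differences were -0.04 and -0.11. In the second pair MOUSELNCRNA_469 differed by -0.17 (SE 0.11) and MOUSELNCRNA_90639 by -0.06 (SE 0.09). In the third, MOUSELNCRNA_63301 differed by 0.21 (SE 0.11) and MOUSELNCRNA_33880 by -0.01 (SE 0.09). None of the 6 passed after adjustment, and the difference between the strands of a pair was not tested.

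In 5 pairs both probes were tested and have a run of 30 or more bases in common on 1 strand. Their differences between genotypes were close to each other, at -0.03 and -0.03 for MOUSELNCRNA_21024 and MOUSELNCRNA_76856, and at 0.12 and 0.08 for MOUSELNCRNA_27367 and MOUSELNCRNA_46145. MOUSELNCRNA_84548 and MOUSELNCRNA_9515 differed by -0.42 and -0.50, and MOUSELNCRNA_83097 and MOUSELNCRNA_88323 by -0.10 and -0.01, and the last pair is that of MOUSELNCRNA_48323 and MOUSELNCRNA_57614 above. Within each pair the values lay closer together than the median SE of a difference, which was 0.12. That SE includes the spread between mice, which both probes of a pair share, so it is no measure of the agreement between probes. For the repeated-ATTTA probes, duplicate spots on an array varied by a median coefficient of 5.06% to 6.94%, against 5.44% to 6.67% over all probes.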

How the data were processed

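Spot tables from Agilent Feature Extraction were deposited for each array (version 12.0.3.1 per the file headers, but 10.7 per the submitters' processing notes, where limma is named too). Processed, mean and background signals in them are intensities on a linear scale, per the file headers. The authors also deposited log2 values of the same arrays, whose normalization method is not given in the sources used here, and in which the columns of db/db replicates 2 and 3 held each other's arrays. Here log2 of the processed signal minus each array's 75th percentile was used, after control and flagged spots were left out and spots of a probe averaged. Probes called well above background by every array of db/db or by every array of db/m were tested, 66939 in all, after 6 without a value on some array were left out. The comparison of db/db with db/m used lmFit and eBayes of limma 3.58.1 (R 4.3.3), two-sided, with Benjamini-Hochberg adjustment over all probes tested and a threshold of 0.05. The fit and the motif search were tested on simulated data. The probes, the motifs and the rule for naming probes were chosen with earlier results of these data known. That rule took probes past the adjusted threshold (0 here), the 2 smallest p-values in each direction, 8 tested probes with the most copies (ties by nonamers, then by name) and 2 contrast probes. Alternatives were other scalings, background corrections, filters and priors, slide or replicate number as a block, each array left out and other probe definitions. Probe names through translated proteins, and the planned lists of AU-rich element genes and cell type markers that needed them, were not analysed here.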

Additional observations from a re-analysis of the deposited data

How the results depend on the processing

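Across 23 alternatives the median difference of the repeated-ATTTA probes, -0.010, ran from -0.032 to 0.038, the highest with at least 3 copies required, and its sign turned. Leaving out single arrays gave -0.025 to 0.016. The count lower in db/db, 32, was 21 after normexp with quantile normalization, 16 with slide as a fixed block, 16 with slide as a random block, 8 within the first slide, 0 with at least 3 copies and 11 to 39 without single arrays. The count higher, 13, was 22 after quantile normalization, 22 after normexp with quantile normalization, 20 in the authors' values, 20 with the percentile over detected probes, 4 with slide as a fixed block, 4 within the first slide, 0 with at least 3 copies and 8 to 26 without single arrays. In either direction, 9.92% of the 252 passed with slide as a random block, 19.4% in the authors' values and 17.9% with the percentile over detected probes. Of all probes, 12.7%, 17.9% and 17.7% passed in these settings. Relative to the contrast group, the median of 0.05 became -0.024 without the polyadenylation hexamer and 0.031 to 0.073 without single arrays. The detection gap of -7.52 percentage points became 6.30 with at least 3 copies (12 probes), -8.76 with copies counted without overlaps, -5.92 with 1 probe per cluster of shared sequence, -8.74 with A and T counts matched (322 probes) and -3.16 without the hexamer. The causes were not tested, and with at least 3 copies only 12 probes remained. Replicate number as a block gave 21 lower, 14 higher and 0 after adjustment (13.9% in either direction, against 16.1% of all probes). The numbers did not pair the samples, since the correlations of same-numbered deviations were 0.08, -0.15 and 0.13. Signs turned for named probes with differences of -0.11 to 0.09. MOUSELNCRNA_77976 became 0.0098 with quantile normalization, 0.0049 with normexp, 0.013 with normexp and quantile, 0.0095 with the other percentile, 0.019 with GC centring and 0.011 in the deposited log2 values. MOUSELNCRNA_17691 became -0.021 with normexp. With slide as a fixed block or within the first slide, MOUSELNCRNA_17691 became -0.00093, MOUSELNCRNA_44994 -0.028, MOUSELNCRNA_48218 0.040, MOUSELNCRNA_52479 -0.23 and MOUSELNCRNA_33880 0.10. With slide as a random block MOUSELNCRNA_52479 became -0.0086 and MOUSELNCRNA_33880 0.024. MOUSELNCRNA_33880 became 0.0099 with normexp, 0.0079 with normexp and quantile and 0.0093 with the other percentile. With single arrays left out the values ran from -0.087 to 0.040 for MOUSELNCRNA_77976, -0.0082 to 0.087 for MOUSELNCRNA_17691, -0.072 to 0.0073 for MOUSELNCRNA_32112, -0.00066 to 0.26 for MOUSELNCRNA_52479, -0.11 to 0.0089 for MOUSELNCRNA_90639 and -0.068 to 0.043 for MOUSELNCRNA_33880. The size of a difference is least certain for dim probes, such as MOUSELNCRNA_59527 (1.06, and 0.15 with normexp).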
